A study of Mus musculus with 4 samples.

Results

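The 10 genes described here encode cytokines of the interleukin-1 (IL-1) family, the interleukin-6 (IL-6) family and tumour necrosis factor, with some of their receptors and inhibitors. They are the ligands Il1a, Il1b, Il6, Osm, Lif and Tnf, the receptor antagonist Il1rn, the receptors Il1r1 and Osmr, and the decoy receptor Il1r2. They were chosen by name from the 32285 genes listed in the deposited single-cell count matrices, and all 10 were found there. Their unique molecular identifiers (UMIs, counts of distinct captured transcripts) were followed through every library and cell class.

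Single cells were profiled from the P2 region of the mouse digit, the level of the middle phalanx, where amputation is described by the submitters as non-regenerative. All animals were wild-type FVB/NJ mice labelled as 8 weeks old, with the sexes labelled as pooled. The unamputated library held homeostatic digit tissue, and the others held fibrosing tissue collected at 12, 17 or 28 days post-amputation (dpa). Enzymatic digestion (trypsin, collagenase I) and lysis of red cells came before a sort of live cells by propidium iodide and 3′ library construction. Each of these 4 groups holds 1 library, so no difference below has a replicate check and no test was made. The intervals given are exact 95% Poisson intervals for levels and exact Clopper-Pearson intervals for shares, and both cover counting error only.

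The libraries held 8813 to 16045 barcodes, of which 6514 to 10394 passed the filters, 34951 cells in all, with a median of 6654 to 11630 UMIs per kept cell. Pairs of libraries shared 19 to 87 barcodes. The libraries go against the pooled-sex label, where a cell was counted at 2 or more UMIs of either kind and none of the other. Xist with no Y-linked UMI was found in 54.3% of the kept cells labelled 12 dpa and in 1, 0 and 0 cells of the unamputated, 17 and 28 dpa libraries. Y-linked UMIs with no Xist were found in 0 cells at 12 dpa and in 77.8%, 58.4% and 47.1% of the cells of the others. Time and the sex of the cells cannot be told apart in any comparison with the 12 dpa library, and every statement on 12 dpa below carries that limit. Cells were grouped into 30 clusters without using the 10 genes, and a cluster was called "like" a cell type only from its marker genes. A cluster of myeloid cells led by Acp5 and Clec5a stayed unnamed. The neutrophil-like class joins a cluster led by the granule genes Camp and Ngp with one led by Ccrl2. The first held 497 and 206 cells in the unamputated and 17 dpa libraries and 0 at 12 and 28 dpa, and the other held 546, 280, 252 and 182 cells in the order unamputated, 12, 17 and 28 dpa. Levels are given below in that library order, as CPM, the UMIs of a gene for every 1000000 UMIs of the cells summed. A log2 difference compares a library with the unamputated one after adding 1 CPM to both, and a gene is called higher or lower at a 2-fold difference with at least 5 CPM in the higher library.

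In this system IL-1 alpha and IL-1 beta act through the receptor encoded by Il1r1, the antagonist encoded by Il1rn occupies that receptor without signalling, and Il1r2 encodes a decoy that binds the ligand and does not signal. IL-6, oncostatin M (Osm) and leukaemia inhibitory factor (Lif) act through receptor complexes that share the subunit encoded by Il6st, and Osmr encodes the chain that joins it to receive oncostatin M. IL-1 and tumour necrosis factor activate NF-kB in the cells that receive them, and in skin wounds neutrophils and macrophages are known early sources of both.

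Of the 10 genes, 6 had most of their UMIs in immune cells in every library (Il1a, Il1b, Il1rn, Il1r2, Osm and Tnf), and Il6, Il1r1 and Osmr had most of theirs in vascular and stromal cells. Lif lay in both, with 44.1%, 53.8%, 46.8% and 67.7% of its UMIs in stromal cells and 131, 55, 55 and 17 UMIs in immune cells beside 130, 78, 59 and 46 in stromal cells. Immune cells, the unnamed Acp5 cluster included, held 96.6% to 98.8% of the Il1b UMIs of kept cells, 96.8% to 98.8% of those of Osm and 90.7% to 94.8% of those of Tnf across the 4 libraries. They held 77.8% to 90.6% of the Il1rn UMIs and 68.7% to 84.9% of the Il1r2 UMIs, and keratinocyte-like cells held most of the remainder of both. By contrast, immune cells held 0.421% to 1.41% of the Il6 UMIs, 0.31% to 0.733% of those of Osmr and 4.6% to 6.27% of those of Il1r1. The vascular cells, which are the mural-like and the endothelial-like cells, held 91.8%, 85.2%, 58.9% and 69.6% of the Il6 UMIs. The share of Il6 UMIs in stromal cells was 6.55%, 11.9%, 39.2% and 28.5%, so the stromal share was larger in the 17 and 28 dpa libraries than in the other two. These shares move with the number of cells sampled from each class as well as with the level per cell, and in such sums fewer cells and less RNA per cell cannot be told apart.

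**Figure D1:**
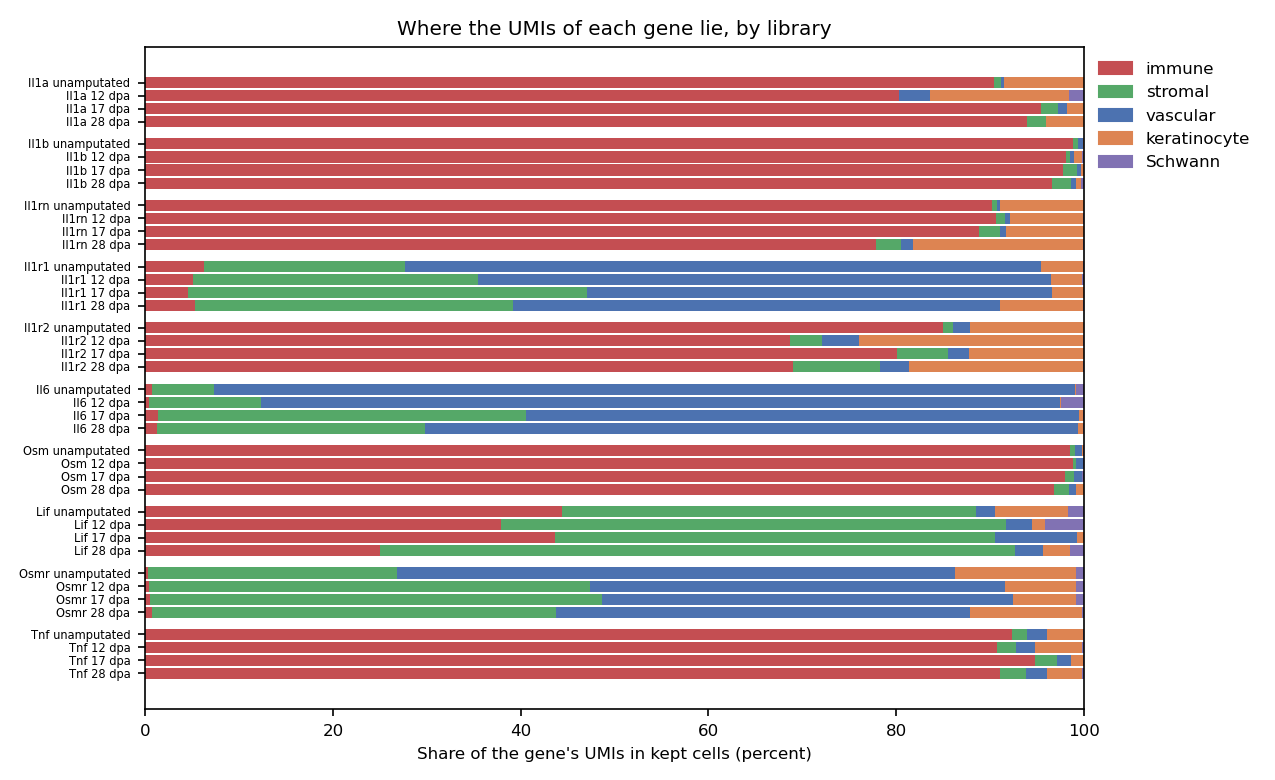
Share of each gene's UMIs (percent of its UMIs in kept cells, horizontal axis) held by immune, stromal, vascular, keratinocyte-like and Schwann-like cells, with 1 stacked bar per gene and library. Il1b, Osm and Tnf lie almost wholly in immune cells in all 4 libraries, while Il6, Il1r1 and Osmr lie in vascular and stromal cells.

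Il1b, which encodes the secreted IL-1 beta, was highest in neutrophil-like cells in every library. This class held 57.7%, 50.2%, 54.2% and 59.9% of all Il1b UMIs, while it made up 10.0%, 4.3%, 5.78% and 1.8% of the kept cells. Its Il1b level was 2422 CPM (2379 to 2466) in the unamputated library, 7050 CPM (6824 to 7281) at 12 dpa, 2575 CPM (2502 to 2650) at 17 dpa and 12259 CPM (11842 to 12687) at 28 dpa. The pooled level was thus high in the 12 and 28 dpa libraries, which hold no Camp cells, and the log2 differences were 1.54, 0.09 and 2.34. Within the Ccrl2 cluster alone, a comparison chosen after these values were seen, Il1b stood at 7994, 7050, 7241 and 12259 CPM. There the log2 differences were -0.18, -0.14 and 0.62, so the 12 dpa difference changed sign and the 28 dpa difference was under 2-fold. The summed level of 14 genes known to be induced by tissue dissociation was 6792, 11809, 5679 and 16252 CPM in all neutrophil-like cells, where 10 and 11 of the 14 were higher at 12 and 28 dpa, and 17154, 11809, 12040 and 16252 CPM in the Ccrl2 cluster. Their part in the Il1b values was not tested. In the Camp cluster Il1b was at 395 CPM in the unamputated library and 646 CPM at 17 dpa, far below the Ccrl2 cluster of the same libraries.

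The share of neutrophil-like cells with an Il1b UMI was 61.8%, 93.2%, 74.2% and 97.3%, and 54.9%, 87.1%, 65.1% and 96.2% when every cell was thinned to 1000 UMIs. In mural-like cells, which should lack the transcript, the thinned share was 0.139% to 0.321%. In the Ccrl2 cluster alone the unthinned share was 94.1%, 93.2%, 97.6% and 97.3%. Almost every cell of that cluster therefore carried the transcript in each library, the unamputated one included.

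Dendritic-like cells had Il1b at 1044, 1054, 1011 and 697 CPM. The intervals of the unamputated, 12 and 17 dpa values overlap, and the 28 dpa value (638 to 760) lies below them. The 5 cells with most Il1b UMIs held 16.2%, 27.7%, 34.0% and 39.9% of those UMIs. An Il1b UMI was found in 62.3%, 64.2%, 53.1% and 39.0% of the dendritic-like cells. The unnamed Acp5 cluster had 279, 266, 232 and 286 CPM, a narrow range over the 4 libraries. Monocyte-like cells had 289 CPM in 173 unamputated cells and 1112 CPM (1008 to 1225) in 60 cells at 17 dpa, a log2 difference of 1.94, with 43.3% of the 413 UMIs at 17 dpa in 5 of the cells. The other libraries held fewer than 50 monocyte-like cells. Macrophage-like cells had 155, 112, 114 and 63.6 CPM, with a log2 difference of -1.27 at 28 dpa.

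The macrophage-like value also pools clusters whose numbers differed between libraries. A cluster led by Ms4a7 and Apoe held 739, 458, 354 and 108 cells, and one led by F13a1 and Folr2 held 86, 38, 568 and 1646. In the Ms4a7 cluster Il1b was at 166, 119, 195 and 477 CPM, highest at 28 dpa, with a log2 difference of 1.51. That value rests on few cells: 5 of the 108 held 62.4% of the 351 UMIs, and the share of cells with an Il1b UMI was 19.4%, 22.5%, 27.4% and 22.2%. All 14 dissociation-induced genes were also higher in this cluster at 28 dpa than in the unamputated library (8832 against 6615 CPM summed), and their part in the result was not tested. In the F13a1 cluster it was at 57.7, 70.4 and 39.5 CPM in the unamputated, 17 and 28 dpa libraries, a log2 difference of -0.54 at 28 dpa.

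**Figure D2:**
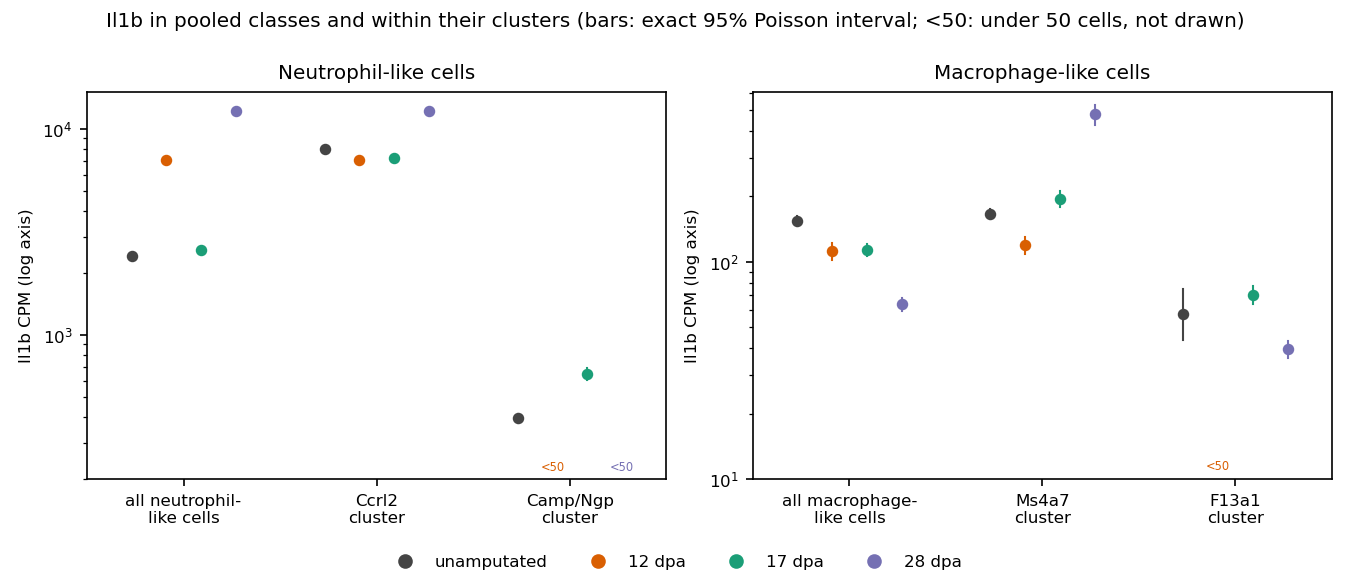
Il1b level (CPM, log axis) in all neutrophil-like cells and in their Camp and Ccrl2 clusters (left), and in all macrophage-like cells and in their Ms4a7 and F13a1 clusters (right), 1 point per library with exact 95% Poisson bars. The 12 dpa point lies above the unamputated point for all neutrophil-like cells (7050 against 2422 CPM) and below it within the Ccrl2 cluster (7050 against 7994 CPM).

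Il1a, which encodes the cell-associated IL-1 alpha, was sparse, with 271, 61, 108 and 49 UMIs in the kept cells. Neutrophil-like cells had 16.4, 40.1, 17.9 and 48.8 CPM, the highest value of any class of 50 or more cells in each library. In the Ccrl2 cluster the values were 56.1, 40.1, 59.5 and 48.8 CPM, with overlapping intervals. The unnamed Acp5 cluster had 8.04, 2.55, 6.06 and 2.87 CPM and dendritic-like cells 6.17, 2.59, 7.5 and 10.8 CPM, values that rest on 3 to 98 UMIs each. Macrophage-like cells had 4.64, 1.38, 3.15 and 1.35 CPM, and at 12 dpa keratinocyte-like cells held 14.8% of the Il1a UMIs, at 0.988 CPM.

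Il1a and Il1b lie on chromosome 2 on the minus strand, at chr2:129299610-129309972 and chr2:129364570-129371139 in GENCODE M21. The 250 bases before their starts are shown because both genes had their highest level in the same neutrophil-like cluster. The sequences are those of RefSeq on GRCm38.p6, read on the minus strand at chr2:129309973-129310222 and chr2:129371140-129371389.
Il1a: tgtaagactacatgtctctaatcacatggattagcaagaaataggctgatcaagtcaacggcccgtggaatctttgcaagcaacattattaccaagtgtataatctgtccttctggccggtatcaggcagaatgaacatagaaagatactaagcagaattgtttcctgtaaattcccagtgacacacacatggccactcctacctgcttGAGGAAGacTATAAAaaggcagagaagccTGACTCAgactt
Il1b: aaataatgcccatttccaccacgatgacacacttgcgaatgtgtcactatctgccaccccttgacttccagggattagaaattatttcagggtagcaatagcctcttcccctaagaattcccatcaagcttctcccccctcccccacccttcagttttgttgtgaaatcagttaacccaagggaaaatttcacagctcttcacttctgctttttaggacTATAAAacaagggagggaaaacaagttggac
Capitals mark matches to the motifs searched, on both strands: the NF-kB motif GGNNTTTCC, AP-1 as TGANTCA, C/EBP as TTGCNNAA, CRE as TGACGTCA, PU.1 as GAGGAAG, STAT as TTCCNGGAA and the TATA box as TATAAA. The NF-kB motif ends in the bases that open the STAT motif, and no matches overlap in the stretches shown. The Il1b stretch holds TATAAA 31 to 26 bases before the start and no other of these motifs. The Il1a stretch holds TATAAA 32 to 27 bases before the start, the PU.1 motif GAGGAAG upstream of that and an AP-1 match, TGACTCA. Over the 32851 promoter stretches of this length, TATAAA was found in 12.4%, GAGGAAG in 10.6%, TGANTCA in 6.75%, TTGCNNAA in 9.56%, TGACGTCA in 1.55%, GGNNTTTCC in 4.93% and TTCCNGGAA in 0.913%. These are letter matches in a fixed window and were not tied to any binding in these cells.

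Il1rn, the natural antagonist of the IL-1 receptor, was also highest in neutrophil-like cells, with 329, 1398, 561 and 1017 CPM and log2 differences of 2.08, 0.77 and 1.62. Within the Ccrl2 cluster it was at 1001, 1398, 1501 and 1017 CPM, with log2 differences of 0.48, 0.58 and 0.02, none of which reached 2-fold. Among neutrophil-like cells with an Il1b UMI, 56.3%, 67.4%, 62.9% and 54.8% also had an Il1rn UMI, against 26.4% of the 398 cells without Il1b in the unamputated library and 27.1% of 118 at 17 dpa, the libraries that hold Camp cells. At 12 dpa 10 of the 19 cells without Il1b had Il1rn (28.9% to 75.6%), an interval that contains the share of cells with Il1b, and at 28 dpa 1 of 5. The cells without Il1b were the deeper ones in the unamputated and 17 dpa libraries, at medians of 6740 and 5606 UMIs against 2500 and 2148. Ligand and antagonist were therefore often found in the same cells.

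The unnamed Acp5 cluster held the largest share of Il1rn UMIs in the unamputated and 12 dpa libraries, 37.3% and 47.3%, at 156 and 201 CPM. At 17 dpa the neutrophil-like cells held the largest share, 43.5%, and at 28 dpa the macrophage-like cells, 34.4%. Macrophage-like cells had 85.6, 96.2, 44.6 and 32.5 CPM, lower at 17 and 28 dpa. Within the Ms4a7 cluster the values were 93.3, 101, 76.3 and 120 CPM and within the F13a1 cluster 22.9, 27.7 and 27.4 CPM in the unamputated, 17 and 28 dpa libraries, so neither cluster on its own was 2-fold lower at 28 dpa.

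Outside the immune cells, Il1rn was found in keratinocyte-like cells, the outer-layer cells of skin and nail, at 16.2, 24.3, 21.9 and 12.7 CPM. The 12 and 17 dpa values were the higher ones and every log2 difference was under 2-fold (0.56, 0.41 and -0.33). UMIs of Il1rn lay in 291, 145, 141 and 180 of these cells, so the level did not rest on a few of them.

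**Figure D3:**
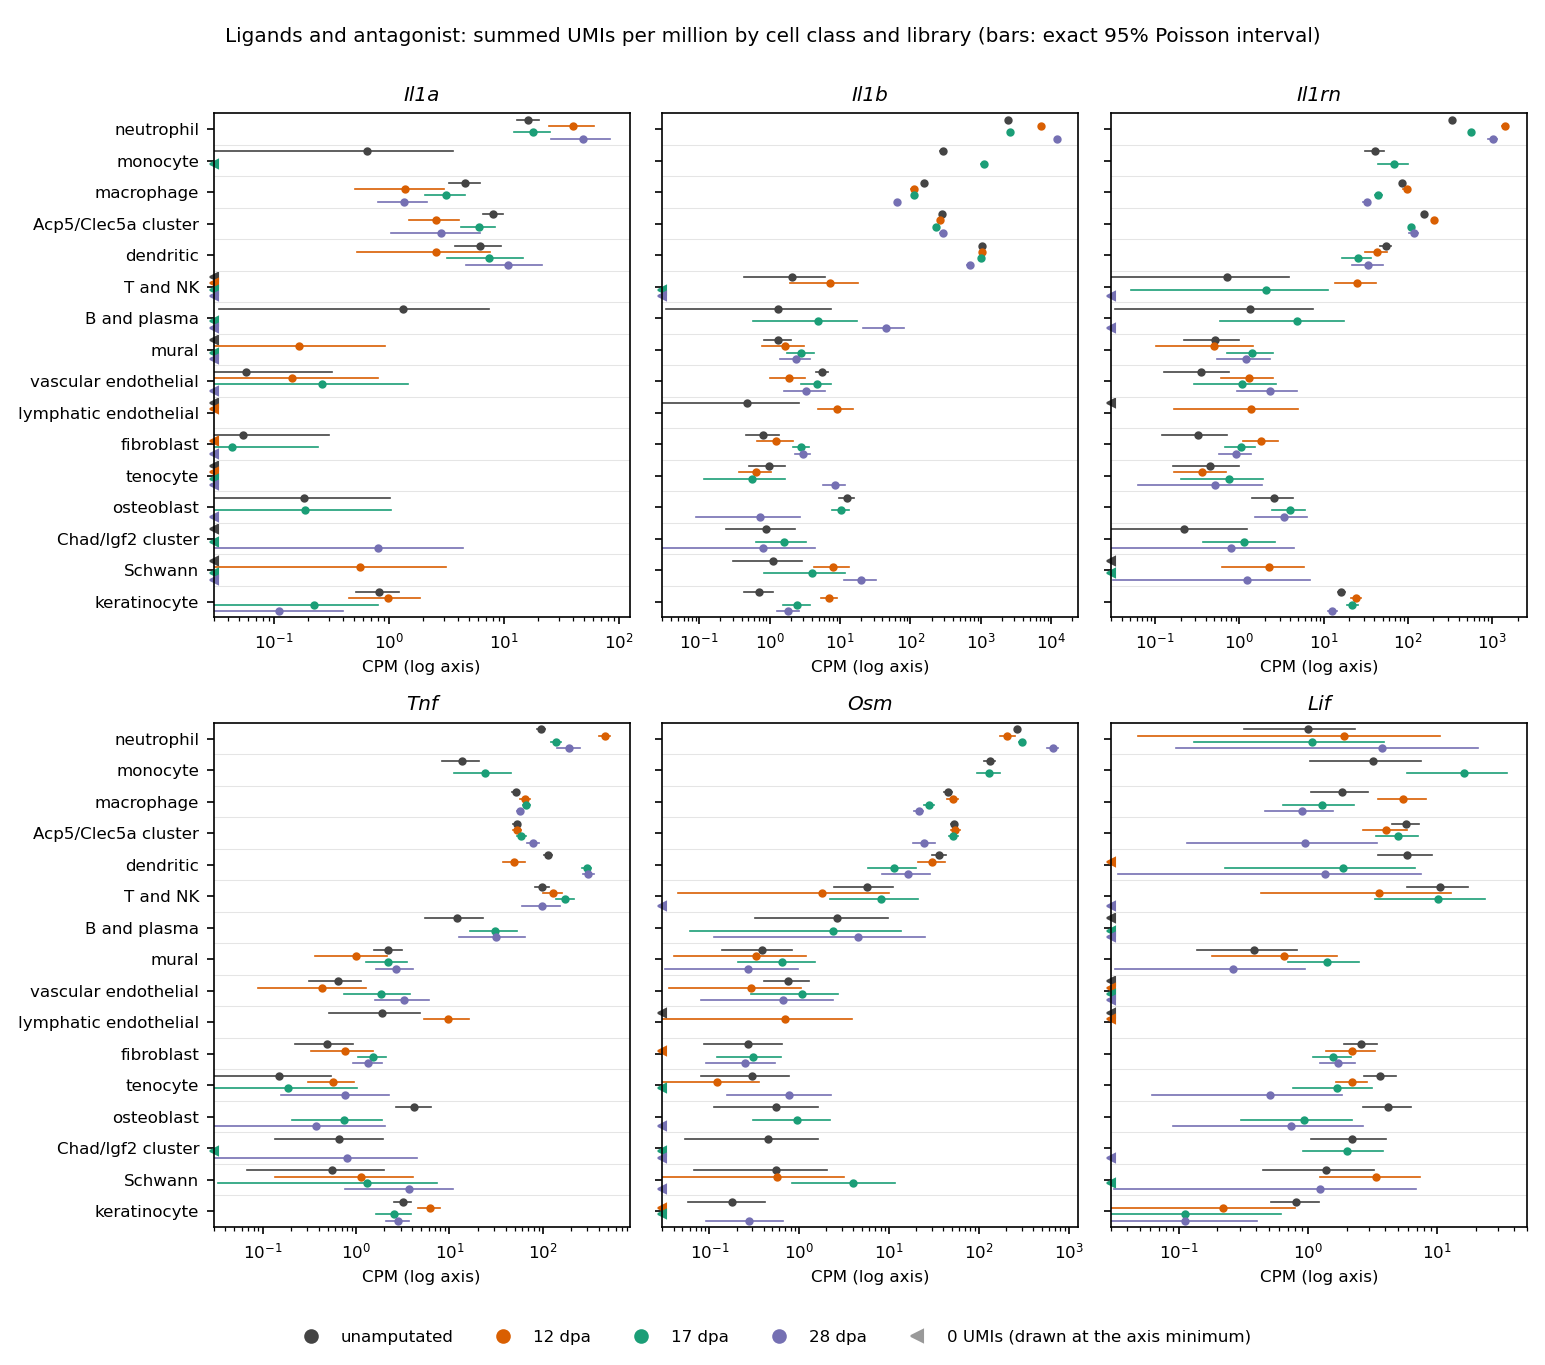
Level of the ligands Il1a, Il1b, Tnf, Osm and Lif and of the antagonist Il1rn (CPM, log axis) in each cell class, with 1 coloured point per library, exact 95% Poisson bars and left-pointing triangles for 0 UMIs. Il1b, Il1rn, Il1a and Osm peak in neutrophil-like cells, and Tnf is spread over the immune classes.

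Il1r1, the signalling receptor of IL-1, was found above all in the vessel wall. Mural-like cells (pericytes and smooth muscle) had 336, 269, 254 and 222 CPM. Vascular endothelial-like cells had 333, 266, 239 and 197 CPM. Both classes were highest in the unamputated library and lowest at 28 dpa, with log2 differences from -0.32 to -0.76 that did not reach 2-fold in any comparison.

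Among endothelial-like clusters Il1r1 was concentrated in the one led by Selp, Sele and Ackr1, which are genes of venules. It stood there at 761, 773, 487 and 373 CPM, against 78.7, 69.1, 61.4 and 47.0 CPM in the cluster led by Prnd. Within the Selp cluster the log2 differences were 0.02, -0.64 and -1.03, so the 12 dpa library matched the unamputated one and the 28 dpa library was 2-fold lower. The shares of cells with an Il1r1 UMI after thinning to 2000 UMIs were 44.3%, 38.9%, 34.4% and 33.6% in mural-like cells and 32.6%, 27.7%, 28.2% and 28.0% in endothelial-like cells.

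Fibroblast-like cells had Il1r1 at 119, 70.1, 69.5 and 48.6 CPM, with a log2 difference of -1.27 at 28 dpa. The class joins clusters at different levels, and none of them alone reached a 2-fold difference: the log2 difference at 28 dpa was -0.74 in the cluster led by C4b, -0.47 in that led by Prss35, -0.98 in that led by Ccn3 and -0.37 in that led by Hcn4. The Ccn3 cluster, at 48.8 CPM in the unamputated library, held 195 of the 951 fibroblast-like cells there and 1205 of 2473 at 28 dpa. Tenocyte-like cells had Il1r1 at 52.0, 38.8, 50.4 and 26.1 CPM. Among immune cells, it was at 84.3, 154, 81.5 and 59.3 CPM in T and NK-like cells and 22.0, 13.1, 9.09 and 8.41 CPM in macrophage-like cells. Neutrophil-like cells had 45, 1, 4 and 3 UMIs of it in all.

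Il1r2, the decoy receptor, was placed differently, with its highest levels in neutrophil-like cells at 837, 1595, 788 and 2500 CPM. In Ccrl2 cells on their own it was at 2390, 1595, 2146 and 2500 CPM, with log2 differences of -0.58, -0.16 and 0.06. Of neutrophil-like cells with an Il1b UMI, 83.6%, 78.5%, 75.6% and 82.5% also had Il1r2, against 47.0%, 42.1% and 34.7% of those without Il1b in the first 3 libraries and 5 of 5 such cells at 28 dpa. The 12 dpa share without Il1b was 8 of 19 cells (20.3% to 66.5%). In the unamputated and 17 dpa libraries, which hold the Camp cells, 26.4% and 45.6% of the Camp cells had an Il1b UMI. The part of this mix of clusters in the contrast was not tested. The decoy was thus often found in the same neutrophil-like cells as the ligand, and these had few Il1r1 UMIs. Other classes held UMIs of both receptors: the unamputated keratinocyte-like cells had 739 of Il1r1 and 881 of Il1r2, and the dendritic-like cells 187 and 1200. Whether single cells of these classes carried both was not tested.

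In dendritic-like cells Il1r2 was at 370 CPM (349 to 391), 475 CPM (436 to 516), 168 CPM (144 to 194) and 95.9 CPM (74.9 to 121). The 17 and 28 dpa values lay below both others, at log2 differences of -1.14 and -1.94. T and NK-like cells had 162, 71, 17 and 0 UMIs (114, 127, 34.6 and 0 CPM, the last with an upper limit of 18.2), low in the same libraries. The unnamed Acp5 cluster had 29.0, 24.9, 9.53 and 5.25 CPM, again lower at 17 and 28 dpa.

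In keratinocyte-like cells Il1r2 was at 31.3, 64.0, 29.8 and 12.1 CPM from 881, 583 and 267 UMIs in the first 3 libraries. The 12 dpa library was the highest (log2 difference 1.01) and the 28 dpa library the lowest (-1.31). The cluster led by Tspear, Col17a1 and Krt14, basal genes of the epidermis, carried most of it, at 67.3, 136, 60.4 and 29.2 CPM, and the cluster led by Krt10 followed the same order at 13.4, 26.5, 8.80 and 3.55 CPM. The share of these cells with an Il1r2 UMI at 2000 UMIs per cell was 6.04%, 9.24%, 5.78% and 2.3%. In the C4b fibroblast-like cluster Il1r2 was at 2.16, 6.20 and 13.5 CPM in the unamputated, 17 and 28 dpa libraries, from 14, 64 and 86 UMIs.

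**Figure D4:**
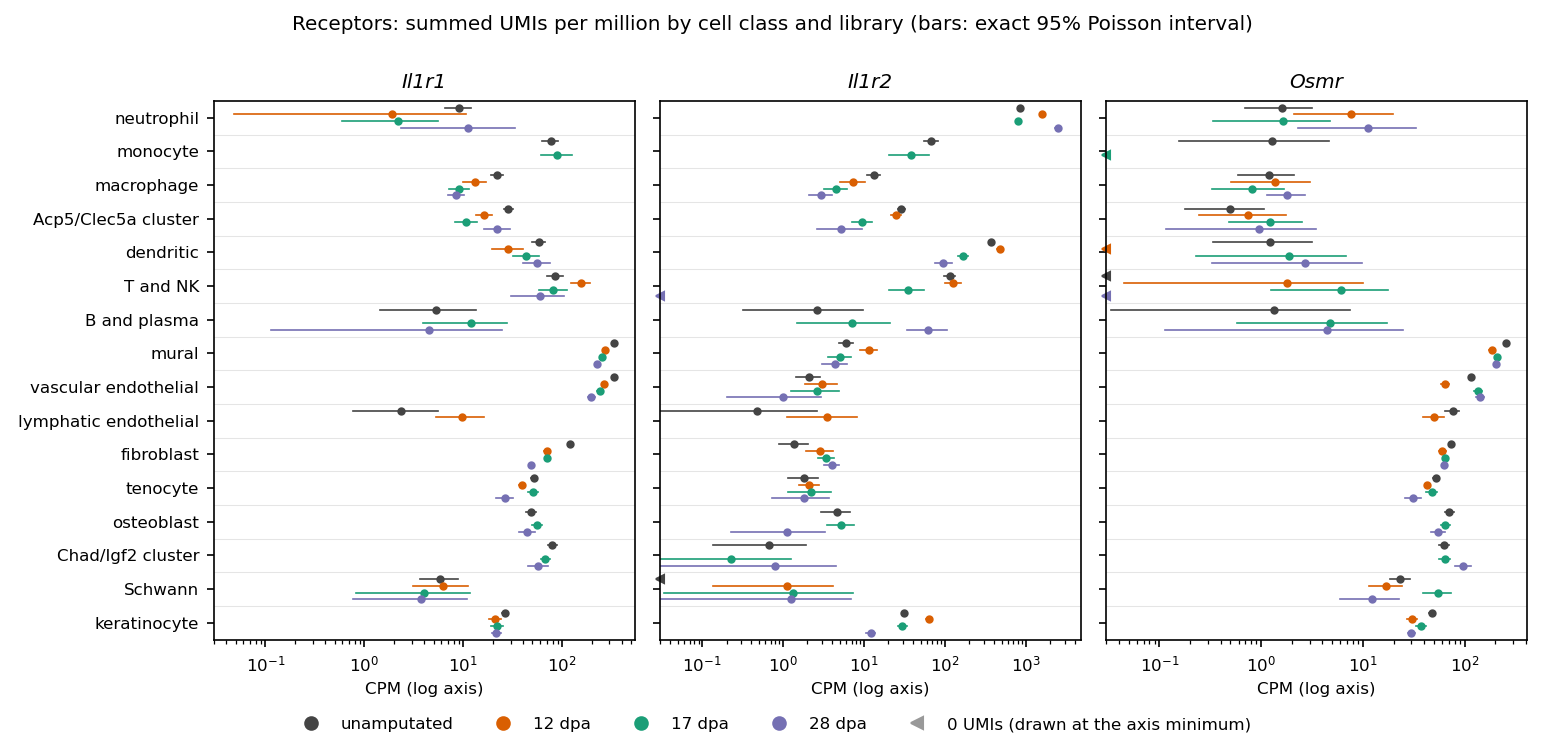
Level of the receptors Il1r1, Il1r2 and Osmr (CPM, log axis) in each cell class, with 1 coloured point per library, exact 95% Poisson bars and left-pointing triangles for 0 UMIs. Il1r1 and Osmr peak in mural-like cells (222 to 336 and 184 to 252 CPM) and Il1r2 in neutrophil-like cells (788 to 2500 CPM).

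Il6, the ligand that gives its family its name, was highest in mural-like cells in every library. Its level there was 180 CPM (173 to 187) in the unamputated library, 73.8 CPM (67.1 to 81.0) at 12 dpa, 158 CPM (150 to 168) at 17 dpa and 223 CPM (213 to 234) at 28 dpa, from 2837, 447, 1239 and 1678 UMIs. The 12 dpa library stood apart on the low side, with a log2 difference of -1.27, and the others were within -0.18 and 0.31 of the unamputated library. In the cluster led by Rgs5, a pericyte gene, the level was 199, 82.3, 200 and 284 CPM, and in the smooth muscle cluster led by Pln it was 161, 74.3, 99.5 and 142 CPM. Both were low at 12 dpa, with log2 differences of -1.26 and -1.10.

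The transcript lay in a minority of mural-like cells. After thinning to 2000 UMIs, 14.4% (12.6 to 16.3), 9.16% (7.2 to 11.5), 13.4% (11.5 to 15.5) and 15.4% (13.7 to 17.3) of them had an Il6 UMI, and 26.6%, 15.9%, 22.8% and 20.9% had one before thinning. In keratinocyte-like cells, which had close to none, the thinned share was 0%, 0%, 0% and 0.172%, where 0 of 1458, 606 and 675 cells allow up to 0.253%, 0.607% and 0.545%. Of mural-like cells with Il6, 88.0%, 81.3%, 72.3% and 64.1% also had Il1r1, against 78.8%, 68.6%, 60.3% and 51.1% of those without it. The cells with Il6 were the deeper ones, with medians of 11225, 8587, 6379 and 4528 UMIs against 9650, 6687, 5682 and 3974.

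Vascular endothelial-like cells came next at 79.5, 52.0, 59.0 and 71.1 CPM, with no 2-fold difference, and the Selp cluster stood at 145, 114, 109 and 118 CPM. Mural markers, 8 genes, summed to 92.7, 75.1, 260 and 441 CPM in the endothelial-like cells against 15750 to 22060 CPM in the mural-like cells. Their part in the endothelial-like Il6 values was not tested.

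Fibroblast-like cells had less Il6 and differed more between libraries. Their level was 9.71 CPM (8.34 to 11.2), 6.04 CPM (4.64 to 7.73), 33.5 CPM (31.2 to 35.9) and 28.7 CPM (26.7 to 31.0), from 179, 63, 773 and 700 UMIs. The 17 and 28 dpa libraries were the high ones, with log2 differences of 1.69 and 1.47. The thinned share of fibroblast-like cells with an Il6 UMI was 1.28%, 0.765%, 3.81% and 3.9%. In the C4b cluster, which also carried the progenitor marker Pi16, Il6 was at 9.55 CPM in 350 unamputated cells, 35.2 CPM in 779 cells at 17 dpa and 80.2 CPM in 787 cells at 28 dpa, with 35 cells only at 12 dpa. There the log2 differences were 1.78 and 2.94, and the UMIs came from 25, 81 and 133 cells.

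A cluster led by Hcn4 and Foxd1 had 37.1, 92.5 and 69.9 CPM of Il6 in the unamputated, 17 and 28 dpa libraries, in 111, 405 and 286 cells. Few cells carried it, since 5 of them held 83.6%, 40.3% and 67.2% of these UMIs. It counted as fibroblast-like, and it stayed unnamed in the clustering with no doublets removed. Fibroblast-like cells held 31.1% of the Il6 UMIs at 17 dpa, and 12.4% in that clustering. In the Prss35 cluster the 47.8 CPM at 28 dpa came from 6 cells. The Ccn3 cluster had 4.17, 1.88, 1.31 and 1.51 CPM, so the most numerous fibroblast-like cells at 28 dpa had the lowest level among these clusters. An unnamed cluster led by Chad and Igf2 had 10.2, 23.6 and 43.9 CPM in the unamputated, 17 and 28 dpa libraries, also higher at the later times.

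Genes known to be induced by tissue dissociation also differed between the libraries, in the same order as Il6 in fibroblast-like cells and their C4b cluster, and in another order in all mural-like cells and the Hcn4 cluster. In the Rgs5 cluster of mural-like cells the order was again that of Il6, with the list at 4842, 3381, 6160 and 7237 CPM. The summed level of 14 such genes, Fos, Jun and Egr1 among them, was 5822, 3604, 7426 and 9976 CPM in mural-like cells, where 0, 11 and 13 of the 14 were higher than in the unamputated library at 12, 17 and 28 dpa. In fibroblast-like cells it was 4799, 2384, 6995 and 5607 CPM, in the C4b cluster 5015, 7841 and 11333 CPM in the unamputated, 17 and 28 dpa libraries, and in the Hcn4 cluster 13047, 14115 and 11501 CPM. Il6 is itself a gene of rapid induction, and the part of dissociation in these values was not tested.

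**Figure D5:**
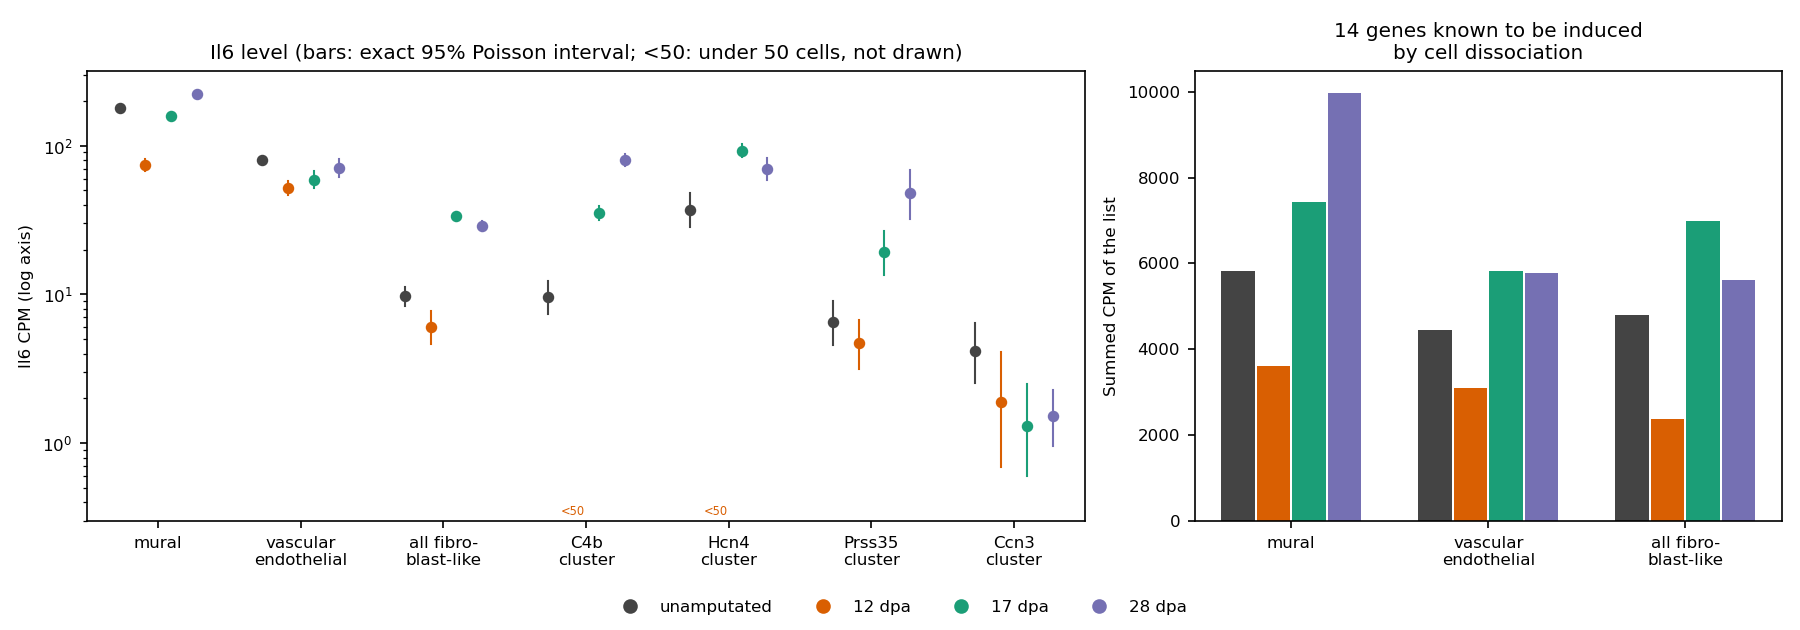
Il6 level (CPM, log axis) in mural-like, vascular endothelial-like and fibroblast-like cells and in 4 fibroblast-like clusters (left), 1 point per library with exact 95% Poisson bars, and the summed CPM of 14 dissociation-induced genes in the same 3 classes (right), 1 bar per library. Il6 in mural-like cells is lowest at 12 dpa (73.8 CPM) and in fibroblast-like cells highest at 17 dpa (33.5 CPM), and the summed list is lowest at 12 dpa in all 3 classes.

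Il6 lies at chr5:30013114-30019981 on the plus strand. The 250 bases before its start, at chr5:30012864-30013113, are shown because Il6 was the one ligand of the set with its highest levels in vessel wall cells.
Il6: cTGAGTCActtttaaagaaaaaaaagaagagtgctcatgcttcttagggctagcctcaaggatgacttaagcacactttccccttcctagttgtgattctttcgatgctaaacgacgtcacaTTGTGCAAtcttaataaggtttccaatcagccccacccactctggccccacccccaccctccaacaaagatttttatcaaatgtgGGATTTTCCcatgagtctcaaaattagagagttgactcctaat
Capitals mark 3 matches: TGAGTCA for AP-1, 249 to 243 bases before the start, TTGTGCAA, a C/EBP match on the other strand 128 to 121 bases before it, and GGATTTTCC for NF-kB 43 to 35 bases before it. Of the 10 genes, 9 had such a stretch in the RefSeq table, all but Osm, and the NF-kB letters were also found before 1 start of Il1rn.

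Osm, a ligand released by myeloid cells, was highest in neutrophil-like cells at 267, 206, 299 and 657 CPM. Among the Ccrl2 cells it was at 507, 206, 452 and 657 CPM, so the 12 dpa library was the low one (log2 difference -1.29) and the 28 dpa library was above the unamputated one by 0.37. Monocyte-like cells had 131 and 129 CPM in the unamputated and 17 dpa libraries, and the unnamed Acp5 cluster had 52.0, 54.5, 51.3 and 24.4 CPM. Macrophage-like cells had 45.2, 50.5, 27.5 and 21.2 CPM, with 48.0, 51.3, 37.8 and 55.7 CPM in the Ms4a7 cluster and 21.9, 22.0 and 19.2 CPM in the F13a1 cluster of the unamputated, 17 and 28 dpa libraries. As for Il1rn, the pooled macrophage-like level was 2-fold lower at 28 dpa (log2 difference -1.05) and neither cluster was.

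Osmr, the receptor chain for oncostatin M, lay outside the immune cells. Mural-like cells had 252, 184, 208 and 205 CPM, the highest of the classes in every library. Vascular endothelial-like cells had 115 CPM (110 to 120), 64.2 CPM (58.4 to 70.5), 135 CPM (124 to 147) and 142 CPM (129 to 156), low at 12 dpa with a log2 difference of -0.83. Fibroblast-like cells had 74.2, 60.1, 64.1 and 63.3 CPM, and the Prss35 cluster alone had 91.5, 73.8, 91.3 and 209 CPM, the last from 131 UMIs. Tenocyte-like cells had 52.3, 42.9, 47.8 and 31.2 CPM and keratinocyte-like cells 47.3 CPM in the unamputated library, 30.5 CPM (27.0 to 34.3) at 12 dpa and 37.2 CPM at 17 dpa. At 28 dpa their interval was 27.5 to 32.7 CPM, as low as at 12 dpa. The unnamed Chad cluster had 63.2, 63.6 and 97.4 CPM in the unamputated, 17 and 28 dpa libraries. The dendritic-like, macrophage-like and unnamed Acp5 cells had at most 2.70 CPM in any library.

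Lif, a ligand of the same family, was sparse, with every class of 50 or more cells at or below 16.2 CPM, the value of 6 UMIs in the 60 monocyte-like cells at 17 dpa. T and NK-like cells had 15, 2, 5 and 0 UMIs, which is 10.5 CPM in the unamputated library and 0 CPM at 28 dpa. Of the 15 UMIs 10 lay in 1 cell and all 15 in 5 cells. Dendritic-like cells had 19, 0, 2 and 1 UMIs, and the unnamed Acp5 cluster had 5.75, 4.05, 5.02 and 0.955 CPM. Tenocyte-like cells had 3.66, 2.21, 1.67 and 0.511 CPM, with the most in the unamputated library. Fibroblast-like cells had 2.60, 2.21, 1.56 and 1.72 CPM, and held 61.8% of the Lif UMIs at 28 dpa. Macrophage-like cells had 1.83, 5.51, 1.28 and 0.901 CPM from 17, 24, 11 and 12 UMIs, highest at 12 dpa, where 5 cells held 70.8% of the UMIs.

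Tnf, the gene of tumour necrosis factor, was spread over several immune classes, although at 28 dpa macrophage-like cells held 755 of its 1356 UMIs. Dendritic-like cells had 114 CPM (103 to 126), 49.2 CPM (37.3 to 63.8), 297 CPM (265 to 332) and 308 CPM (269 to 351), from 370, 57 and 317 UMIs in the first 3 libraries. The 17 and 28 dpa libraries were high and the 12 dpa library low, with log2 differences of 1.37, 1.43 and -1.20. The 5 cells with most Tnf UMIs held 28.1%, 47.4%, 38.5% and 44.3% of those UMIs, and the thinned share of dendritic-like cells with Tnf was 11.9%, 29.9% and 26.3% in the 12, 17 and 28 dpa libraries and 44 of 275 cells (11.9% to 20.9%) in the unamputated one. The 12 dpa interval (6.98% to 18.7%) overlaps that of the unamputated library, so a lower thinned share at 12 dpa was not detectable at this depth. Without thinning, 34.2%, 20.4%, 45.3% and 44.0% of the cells had a Tnf UMI in library order. The dissociation list summed to 7345, 6137, 8120 and 6963 CPM in these cells.

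Neutrophil-like cells had Tnf at 95.5, 459, 140 and 191 CPM, and 237, 459, 362 and 191 CPM within the Ccrl2 cluster. The 12 dpa library was the highest on both counts, at a log2 difference of 2.25 pooled and 0.95 within the cluster, where 5 cells held 42.9% of the 240 UMIs. T and NK-like cells had 97.6, 129, 173 and 98.9 CPM. Macrophage-like cells had 51.3, 64.5, 66.7 and 56.7 CPM and the unnamed Acp5 cluster 52.4, 53.0, 58.7 and 78.8 CPM, both without a 2-fold difference. Macrophage-like cells held 20.6%, 25.3%, 34.0% and 55.7% of the Tnf UMIs, while their number was 825, 496, 922 and 1754.

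Tnf lies at chr17:35199381-35202007 on the minus strand. The bases before its start, at chr17:35202008-35202257, are shown for comparison with those of the other ligands of immune cells.
Tnf: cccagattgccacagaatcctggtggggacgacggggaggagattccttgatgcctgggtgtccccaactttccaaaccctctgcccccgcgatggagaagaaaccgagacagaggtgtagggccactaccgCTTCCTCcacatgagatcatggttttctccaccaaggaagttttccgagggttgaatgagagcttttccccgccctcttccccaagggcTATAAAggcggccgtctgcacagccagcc
Capitals mark CTTCCTC, the PU.1 motif on the other strand 118 to 112 bases before the start, and TATAAA 29 to 24 bases before it. Il1a, Il1b and Tnf thus all had TATAAA within this window and close to the start, and Il6 had none of these letters there.

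Counted over the 10 genes, the calls in a class have to be read beside those of all its genes. In neutrophil-like cells 5 of the 8 genes past the minimum were called higher at 12 dpa (Il1a, Il1b, Il1rn, Osmr and Tnf, with Osmr on 4 UMIs) and 1 lower, where 20.4% of all genes tested were higher and 23.4% lower. At 28 dpa 6 of 8 were higher and 0 lower, with 22.6% and 21.8% of all genes, and at 17 dpa 0 were higher and Il1r1 was lower, with 3.04% and 3.06%. Within the Ccrl2 cluster the counts were 0 higher and 2 lower at 12 dpa (Il1r1 and Osm, beside 13.5% and 13.3% of all genes), 0 and 1 at 17 dpa (11.9% and 9.16%) and 1 and 0 at 28 dpa (Osmr on 3 UMIs, beside 18.3% and 13.2%). The pooled counts of higher genes were thus not found in the cluster that all 4 libraries shared.

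In the Camp cluster at 17 dpa Il1rn was higher and Il1r1 lower, beside 4.11% and 4.4% of all genes. In macrophage-like cells Lif alone was called higher at 12 dpa and no gene lower (1.16% of all genes higher, 2.51% lower), Il1r1 and Il1r2 were lower at 17 dpa (2.22% higher, 1.93% lower), and Il1b, Il1rn, Il1r1, Il1r2 and Osm were lower at 28 dpa, 5 of 6 genes past the minimum (4.04% higher, 6.26% lower). In the Ms4a7 cluster Lif was higher and Il1a lower at 12 dpa (1.23% and 2.54%), 0 of 7 genes were called at 17 dpa (1.33% and 0.801%), and at 28 dpa Il1a and Il1b were higher (4.82%), Il1b through the 5 cells described above, and Il1r2 lower (5.67%). In the F13a1 cluster 0 were called in either direction at 17 dpa (3.5% higher, 2.07% lower) and at 28 dpa (4.15% and 4.63%).

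In fibroblast-like cells 0 of 3 genes were called at 12 dpa (1.13% of all genes higher, 3.25% lower). For Il6 this depended on the setting, since it was 2-fold lower with no doublets removed (log2 difference -1.31) and without the 5 highest cells (-1.29). Il6 was called higher there at 17 dpa, with no gene lower (0.955% and 2.02%), and at 28 dpa Il6 was higher (3.05%) and Il1r1 lower (7.16%). In mural-like cells Il6 was the only gene of 4 called at 12 dpa, in the lower direction (1.94% of all genes higher, 2.04% lower), and 0 of 4 were called at 17 dpa (0.653% and 0.634%) and 28 dpa (2.06% and 3.18%). In keratinocyte-like cells Il1b and Il1r2 were higher at 12 dpa (0.789% of all genes higher, 1.69% lower), with 48 of the 64 Il1b UMIs in 1 cell. At 17 dpa 0 of 4 were called there (0.93% and 1.29%), and at 28 dpa Il1r2 was lower (1.31% higher, 2.46% lower). In vascular endothelial-like cells 0 of 4 genes were called at 17 dpa (0.876% and 1.08%) and 28 dpa (2.3% and 3.63%). Il1b was called lower there at 12 dpa (0.852% of all genes higher, 0.814% lower), with 96 UMIs in the unamputated library and 13 at 12 dpa. Of those 96 UMIs 63 lay in 1 cell, the share of cells with a UMI was 1.38% and 1.2%, and with no doublets removed the log2 difference changed from -1.18 to 0.11. The 10 neutrophil markers summed there to 228.5 and 21.75 CPM, and the part of neutrophil RNA was not tested.

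A list of 60 further genes of the same pathways was read the same way, beside the shares of all genes in each class. In macrophage-like cells Lifr, the LIF receptor, was lower at 12 dpa (24.6 to 7.57 CPM) and higher at 17 and 28 dpa (54.0 and 61.0 CPM), and it was the only gene of the list called higher there. It was also lower at 12 dpa within the Ms4a7 cluster (19.8 to 6.35 CPM), as the 1 gene of 43 called there. The counts were 0 higher and 1 lower of 43 at 12 dpa (1.16% and 2.51% of all genes), and 1 and 1 of 42 at 17 dpa (2.22% and 1.93%), where Il18bp, which binds interleukin-18, was the lower one (6.47 to 2.68 CPM). At 28 dpa 1 of the 42 genes past the minimum was called higher and 5 lower, beside 4.04% and 6.26% of all genes. The lower ones included the inflammasome gene Nlrp3 (32.6 to 15.8 CPM), Irak2 of the IL-1 receptor-associated kinase family (173 to 85.1 CPM), the NF-kB target Birc3 (101 to 42.7 CPM) and again Il18bp (6.47 to 1.88 CPM). In both the Ms4a7 and the F13a1 cluster 0 genes of the list were called at 17 or 28 dpa. The median log2 difference of the list at 28 dpa was -0.29 in macrophage-like cells, where that of all genes was -0.04.

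In fibroblast-like cells the NF-kB inhibitor Nfkbia was lower at 12 dpa (218 to 105 CPM), Tnfaip3, another brake on NF-kB, was higher at 17 dpa (36.1 to 73.4 CPM), and Il1rl1, the receptor of interleukin-33, was lower at 17 dpa (23.1 to 10.6 CPM). These are 1 lower of 44 genes at 12 dpa (3.25% of all genes lower) and 1 higher and 1 lower of 45 at 17 dpa (0.955% and 2.02%). At 28 dpa 0 of 44 were called, beside 3.05% of all genes higher and 7.16% lower. Of the 14 dissociation-induced genes, whose sums in fibroblast-like cells are given above, 0 were higher at 12 dpa and 13 at 17 dpa, and their part in these calls was not tested. In keratinocyte-like cells Casp4 was lower at 12 dpa (15.6 to 7.25 CPM), Socs3 (23.3 to 8.94 CPM) and Cntfr (15.5 to 3.13 CPM) were lower at 17 dpa, and Il1f9, an interleukin-36 ligand, was lower at 28 dpa (19.3 to 6.57 CPM). These are 1, 2 and 1 of 42 genes, beside 1.69%, 1.29% and 2.46% of all genes lower. The dissociation list summed to 1388, 777.7, 858.3 and 966.8 CPM in these cells, with 0 of 14 genes higher at 12 and 17 dpa and 2 at 28 dpa, and its part in these calls was not tested. In mural-like cells 0 of 37 genes were called at 12 dpa (1.94% of all genes higher, 2.04% lower) and 17 dpa (0.653% and 0.634%), and at 28 dpa Il1rl2, the interleukin-36 receptor, was lower (21.9 to 10.2 CPM, beside 3.18% of all genes lower). Il1rl2 was also the only gene of the list called in vascular endothelial-like cells, lower at 17 and 28 dpa (5.43 to 2.12 and 1.32 CPM), which is 1 of 41 genes at each time beside 1.08% and 3.63% of all genes lower.

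In neutrophil-like cells 22 of 48 genes were called higher and 2 lower at 12 dpa, where 20.4% and 23.4% of all genes were. The counts were 0 and 2 of 44 at 17 dpa (3.04% and 3.06% of all genes) and 13 and 2 of 47 at 28 dpa (22.6% and 21.8%). In the Camp cluster alone, 6 of 43 genes were called higher and 1 lower at 17 dpa, beside 4.11% and 4.4% of all genes. Examples in all neutrophil-like cells at 12 dpa were Il1rap, the partner chain of Il1r1 (281 to 1072 CPM), Nlrp3 (356 to 1567 CPM), Nfkbia (846 to 3494 CPM) and Socs3, which restrains IL-6 family signals (44.3 to 187 CPM). Nlrp3, Nfkbia and Socs3 were not called higher at 12 dpa within the Ccrl2 cluster. In that cluster the counts were 5 and 3 of 49 at 12 dpa (13.5% and 13.3% of all genes), 0 and 2 of 45 at 17 dpa (11.9% and 9.16%), and 4 and 6 of 47 at 28 dpa (18.3% and 13.2%), each below the share over all genes. At 28 dpa Tnfaip3 was lower (966 to 443 CPM) and Il6st higher on 7 UMIs (7.47 to 26.3 CPM). Il1f9 was the gene of the list with the most UMIs among those called higher in that cluster at 12 dpa (344 to 703 CPM).

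Across the 57 sums of a class in a library, the levels of the immune members followed each other. The correlation of log2 levels was 0.915 for Il1b and Osm, 0.875 for Il1b and Il1rn and 0.86 for Il1a and Il1b, while Il6 correlated with Il1r1 at 0.674 and with Osmr at 0.637, and Osmr with Tnf at -0.823. Among 11766 genes, those most like Il1b were Nlrp3 (0.979), Cd14 (0.954) and Itgax (0.952), and those most like Il1rn were F630040K05Rik (0.899), Lilr4b (0.898) and Clec4n (0.898). For Il6 they were Spry4 (0.827), Gm13889 (0.78) and Fzd4 (0.78), and for Osmr Tcf7l1 (0.945), Yap1 (0.933) and Amotl1 (0.929). These sums share their libraries and cell classes and are not independent, so the correlations are a description of where the transcripts lay.

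Overlapping genes bear on the counts of Il1b, Il1a and Il1r2, since the use of strand in counting is not given in the sources used here. Il1b overlaps the antisense gene Il1bos, which had 114, 57, 63 and 16 UMIs beside 21058, 7357, 8744 and 5457 of Il1b. Gm14023 had 188, 65, 92 and 82 UMIs beside 271, 61, 108 and 49 of Il1a, more than the member at 12 and 28 dpa and fewer in the other libraries, so the low Il1a values are uncertain. Gm16894 had 490, 224, 209 and 150 UMIs beside 7231, 2438, 2193 and 1167 of Il1r2.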

How the data were processed

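The deposited files hold UMI counts per gene and barcode, one sparse matrix per library, made by the authors with Cell Ranger 7.1.0 per the file headers and on mm10 per the submitters' processing notes. The annotation release, intron and strand settings and cell-calling settings are not given in the sources used here. Barcodes under 500 genes or 1000 UMIs, or above 10% mitochondrial UMIs, were dropped, and Scrublet doublets were removed at a fixed rate of 0.8% per 1000 barcodes (7.046% to 12.84% of barcodes; its automatic threshold marked 1.702% to 4.045%). Cells were scaled to 10000 UMIs and clustered in scanpy 1.11.5 (2000 variable genes, 30 components, 15 neighbours, Leiden resolution 1; python 3.11.15, scipy 1.17.1, numpy 2.4.6, scikit-learn 1.9.0). The 10 genes, 60 further pathway genes, 14 dissociation-induced genes, mitochondrial genes and sex-linked genes were left out of the clustering.

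A cluster was named where at least 3 markers of a class were detected in 25% or more of its cells and its leading genes did not go against the name. UMIs were summed per class and library, and a class was compared where both libraries held at least 50 of its cells. The members and lists were chosen with earlier results of these data known. Classes are named for a member where they held at least 10% of its UMIs or 1 of its 3 highest levels. Pathway genes are named where they were called in a class the text describes, of those in neutrophil-like cells only examples are given, and 1 gene called in macrophage-like cells is not reported here. The genes most like Il1b, Il1rn, Il6 and Osmr are the 3 of highest Pearson correlation among those with a mean of at least 5 CPM. Gene positions come from GENCODE M21, where 32158 of the 32285 listed genes were found. Sums and intervals were tested on simulated counts drawn from a Poisson distribution, the model behind the intervals. The crowding of UMIs in few cells was not simulated, so this test cannot show how the intervals hold where it occurs. Alternatives covered the cell filter (1000 genes, 2000 UMIs, 5% mitochondrial), doublet removal, resolution 2, the mean over cells, a pseudocount of 5 CPM, equal depth, thinning to 1000 UMIs, a 1.5-fold threshold and a minimum of 20 CPM. Values within single clusters and without the 5 highest cells were added after seeing the data. Nothing here separates biological from technical spread, since each group holds 1 library.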

Additional observations from a re-analysis of the deposited data

Results flagged for a closer look

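Il1r2 in keratinocyte-like cells differed from the unamputated library in opposite directions at different times, with a log2 difference of 1.01 at 12 dpa and -1.31 at 28 dpa. The difference between these times was not tested, since each group holds 1 library. The clusters led by Tspear and by Krt10 had the same order of libraries.

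Tnf in dendritic-like cells was lower at 12 dpa (log2 difference -1.20) and higher at 17 and 28 dpa (1.37 and 1.43), again without a test of the difference between times. Without the 5 cells of most Tnf UMIs in each library the 28 dpa value was 1.13.

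Xist stood at 458.0 CPM in the 12 dpa library, a measurement no comparison above uses, against 0.141, 0.153 and 0.0763 CPM in the unamputated, 17 and 28 dpa libraries. Both 12 dpa values given here come from that library.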

How the results depend on the processing

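Each group holds 1 library, so the log2 differences below carry counting error only, and spread between animals, batches or dissections cannot be told apart from time. In the 12 dpa library sex and time cannot be told apart. Sparse members (Il1a, Lif, and Osmr in immune cells) rest on few UMIs, and the depth limits what can be seen of them: at 28 dpa fewer than 20 neutrophil-like cells held 2000 UMIs, so no share at that depth is given there. No paired analysis was possible because each group holds 1 library.

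Each difference of 2-fold or more was recomputed under every alternative that applied to it. Of the recomputed values of the principal differences, 72 had the sign of the main value and 1 did not, and of those of the other differences 335 did and 8 did not, so a difference is counted once per alternative. The 1 principal value was Il1b in neutrophil-like cells at 12 dpa, -0.18 in the Ccrl2 cluster alone. With no doublets removed, Il1b changed to -1.05 in B and plasma-like cells at 28 dpa, to -0.089 in Schwann-like cells at 12 dpa and to 0.11 in vascular endothelial-like cells at 12 dpa, Il1r1 to -1.73 in B and plasma-like cells at 17 dpa and to -0.58 in lymphatic-like cells at 12 dpa, and Osmr to -0.52 in neutrophil-like cells at 12 dpa. The stricter cell filter took Il1r2 in B and plasma-like cells at 17 dpa to -0.12, and the mean over cells took Il6 in osteoblast-like cells at 17 dpa to -0.021. The cause was not tested for these or for any value that follows.

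For Il1b in neutrophil-like cells the log2 difference at 12 dpa was 1.73 with no doublets removed, 1.78 at resolution 2 and 0.62 as a mean over cells. At 17 dpa it was -0.22 with the stricter filter, 0.023 as a mean over cells and -0.14 in the Ccrl2 cluster, and at 28 dpa 1.42 as a mean over cells and 0.62 in the Ccrl2 cluster. For Il6 in mural-like cells the Rgs5 cluster alone gave 0.011 at 17 dpa and 0.52 at 28 dpa. For Il6 in fibroblast-like cells, 12 dpa gave -1.31 with no doublets removed and -1.29 without the 5 highest cells. At 17 dpa the difference was 1.18 with no doublets removed and 1.39 at a pseudocount of 5 CPM, and at 28 dpa 1.16 with the stricter filter, 1.81 as a mean over cells, 1.20 at a pseudocount of 5 CPM and 2.94 in the C4b cluster.

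For Il1r2 in dendritic-like cells the difference was 0.51 at 12 dpa without the 5 highest cells, and at 17 dpa -1.39 both with the stricter filter and without those cells. For Tnf in dendritic-like cells at 28 dpa it was 1.82 with the stricter filter and 1.13 without the 5 highest cells. For Il1r1 in vascular endothelial-like cells it was -0.22 at 12 dpa as a mean over cells, -0.44 without the 5 highest cells and 0.023 in the Selp cluster, which gave -0.64 at 17 dpa and -1.03 at 28 dpa. With no doublets removed the 28 dpa value was -0.89.

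The share of Il1b UMIs in neutrophil-like cells was 56.4%, 47.7% and 56.1% in the unamputated, 12 and 28 dpa libraries with no doublets removed, and 55.7%, 44.2% and 49.5% in the unamputated, 12 and 17 dpa libraries at resolution 2. That of Il6 UMIs in mural-like cells was 54.5%, 42.8%, 46.7% and 53.9% with no doublets removed. That of Il6 UMIs in fibroblast-like cells was 2.01%, 0.829%, 12.4% and 17.4% with no doublets removed, and 3.05%, 4.32%, 26.1% and 21.6% at resolution 2. Thinned to 1000 UMIs, 87.1% of neutrophil-like cells had Il1b at 12 dpa, and 9.78%, 5.3%, 8.33% and 9.96% of mural-like cells had Il6. Of fibroblast-like cells 0.526%, 2.25% and 2.51% had Il6 in the unamputated, 17 and 28 dpa libraries.

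At a 1.5-fold threshold the pathway genes called were 12 and 28 in neutrophil-like cells at 17 and 28 dpa, 8 and 13 in macrophage-like cells at 12 and 28 dpa, 11, 4 and 8 in fibroblast-like cells and 7, 5 and 11 in keratinocyte-like cells at 12, 17 and 28 dpa. At a minimum of 20 CPM they were 0 in neutrophil-like and 1 in macrophage-like cells at 17 dpa, and 0, 1 and 0 in keratinocyte-like cells at 12, 17 and 28 dpa.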

Other observations

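Tnf was also found in the keratinocyte-like cluster led by Krt15 and Krt17, genes of follicle-type epithelium, at 31.5 CPM at 12 dpa and at 6.23 to 11.0 CPM in the other libraries, from 60, 50, 6 and 40 UMIs in library order. The 12 dpa interval (23.4 to 41.5) does not overlap the others. Over all keratinocyte-like cells 5 cells held 53.6% of the 56 Tnf UMIs at 12 dpa, and the share of cells with a UMI was 3.23% there and 2.93% in the unamputated library. Il1r1 in the small, cycling endothelial-like cluster was at 90.8 CPM in 48 unamputated cells and 114 CPM in 28 cells at 12 dpa. Osmr in Schwann-like cells, the glia of peripheral nerve, was at 23.4, 17.0, 54.3 and 12.4 CPM, highest in the 104 cells of the 17 dpa library, from 41 UMIs. Of these 5 cells held 70.7%, and the share of cells with an Osmr UMI was 15.4% there against 13.7% in the unamputated library. The 14 dissociation-induced genes summed to 4118, 3144, 7272 and 6124 CPM in Schwann-like cells, with 13 of them higher at 17 dpa, and their part was not tested.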
